A study of Mus musculus with 6 samples.

Results

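The genes described here are 40 listed genes for protein folding, disulfide bond formation and protein degradation in the endoplasmic reticulum (ER), of 40213 genes in the deposited table. The list was chosen by name around 2 of its genes, Erp44 and Dnajc10, which had been seen to be low in every RFP KO-HFD library of these same data. The order of the libraries of these 2 genes is therefore a description, and no test is given for them. Messenger RNA was sequenced from epididymal white adipose tissue (eWAT), the visceral fat pad beside the epididymis, with 3 libraries from wild-type mice (WT-HFD) and 3 from mice lacking RFP (RFP KO-HFD). RFP, encoded by Trim27, is an E3 ubiquitin ligase and transcriptional regulator. The RFP KO mice were global knockouts, so every cell type of the fat pad carried the deletion, and all mice were males. From an age of 8 to 10 weeks, both groups ate a diet with 60% fat, and the feeding lasted 12 weeks. The wild types were littermates.

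Proteins bound for secretion, adiponectin and collagen among them in fat, enter the ER unfolded. There the Hsp70 chaperone BiP (Hspa5) and the Hsp90 chaperone Grp94 (Hsp90b1) hold them, the lectins calnexin and calreticulin retain sugar-bearing chains until they are folded, and protein disulfide isomerases pair their cysteines with oxidizing power passed on by the ERO1 oxidases. When folding falls behind, the unfolded protein response, through the sensors ATF6, IRE1 (Ern1) and PERK and the factor XBP1, raises the genes of these chaperones and of the machinery that sends failed proteins to the proteasome. Erp44 retains ERO1 oxidases and unassembled secretory proteins, adiponectin included, in the early secretory path, and Dnajc10 (ERdj5) is a reductase that opens disulfide bonds of proteins bound for degradation.

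The promoters are shown first, because an ER stress element near the start site marks the classical targets of that response and the list was not chosen on it. Promoter sequences were taken from RefSeq, on GRCm38.p6, as the 250 bases before and the 50 bases after the start of each gene. Of the 40 genes, 31 had an entry. The others are Hspa13, Erp29, Tmx3, Fkbp10, Sil1, Hyou1, Manf, Derl1 and Atf6. The element was searched as CCAAT, any 9 bases, CCACG, on both strands. It was found in 9 of the 31 promoters (29%) and in 37 of 27025 gene promoters (0.137%). Hsp90b1 held 2 copies. Each copy is given here as read on the strand that carries the match, with the searched letters in capitals.
Hspa5 chr2:34772025-34772043: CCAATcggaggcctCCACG
Calr chr8:84847075-84847093: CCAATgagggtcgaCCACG
Hsp90b1 chr10:86705638-86705656: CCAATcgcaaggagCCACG
Hsp90b1 chr10:86705533-86705551: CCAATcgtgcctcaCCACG
Canx chr11:50325800-50325818: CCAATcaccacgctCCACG
Pdia6 chr12:17266491-17266509: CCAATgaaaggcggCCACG
Ero1b chr13:12565682-12565700: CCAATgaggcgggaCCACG
Dnajc3 chr14:118937827-118937845: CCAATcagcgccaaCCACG
Creld2 chr15:88819520-88819538: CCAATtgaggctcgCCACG
Syvn1 chr19:6046532-6046550: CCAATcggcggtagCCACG

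The 9 spacer bases differed from gene to gene. The shorter ER stress element II, ATTGG, any 1 base, CCACG, was found in Dnajb11 and Herpud1, and in 12 promoters of all genes (0.0444%). The XBP1 and ATF6 core TGACGTGG was found in Txndc5 and Txndc11, and in 193 promoters of all genes (0.714%). The ATF4 and C/EBP core TTGCATCA was found in Herpud1, and in 279 promoters of all genes (1.03%). No match of 1 motif overlapped a match of another. A match of letters is a description and not evidence of binding.

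None of the 4 motifs was found in the promoters of Erp44 or Dnajc10, the genes around which the list was chosen. Their 250 bases upstream of the start are shown with those of Hspa5 and Hsp90b1, the classical element carriers, each 5′ to 3′ on the strand of its gene, with the letters of the ER stress element in capitals. An element on the other strand reads as CGTGG, 9 bases, ATTGG.
Erp44, chr4:48279636-48279885, minus strand: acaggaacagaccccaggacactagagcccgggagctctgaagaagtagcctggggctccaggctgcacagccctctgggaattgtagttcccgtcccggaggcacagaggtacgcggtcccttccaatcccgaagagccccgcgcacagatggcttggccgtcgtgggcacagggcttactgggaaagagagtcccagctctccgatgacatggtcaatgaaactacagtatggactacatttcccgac
Dnajc10, chr2:80315216-80315465, plus strand: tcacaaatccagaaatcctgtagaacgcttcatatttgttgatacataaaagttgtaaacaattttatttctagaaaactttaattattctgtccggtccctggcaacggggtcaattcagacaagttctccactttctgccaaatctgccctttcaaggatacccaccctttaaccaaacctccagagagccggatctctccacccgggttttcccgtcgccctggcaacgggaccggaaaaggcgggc
Hspa5, chr2:34771840-34772089, plus strand: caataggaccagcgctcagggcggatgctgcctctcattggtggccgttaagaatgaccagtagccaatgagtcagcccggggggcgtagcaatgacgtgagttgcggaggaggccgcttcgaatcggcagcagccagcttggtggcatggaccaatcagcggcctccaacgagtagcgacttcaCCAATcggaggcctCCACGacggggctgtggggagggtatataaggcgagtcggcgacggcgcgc
Hsp90b1, chr10:86705445-86705694, minus strand: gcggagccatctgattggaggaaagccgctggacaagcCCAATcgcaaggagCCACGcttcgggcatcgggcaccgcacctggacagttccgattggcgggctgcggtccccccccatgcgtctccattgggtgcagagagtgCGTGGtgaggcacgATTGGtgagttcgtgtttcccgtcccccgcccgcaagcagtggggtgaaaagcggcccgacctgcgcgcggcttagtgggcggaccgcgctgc
The upstream bases were 59.2% G or C in Erp44, 46.4% in Dnajc10, 62.4% in Hspa5 and 66.8% in Hsp90b1.

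One library has to be known before the values are read. The library labelled RFP KO-HFD 1 held 4870239 counts, while the other 5 held 13309044 to 17215047. The labels give the cell type as adipocyte, but whole-tissue markers were present, with macrophage markers at 0.152 to 0.341% of counts in WT-HFD and 0.0441 to 0.156% in RFP KO-HFD. Its hepatocyte markers (11 of 12 in the table) took 2.76% of its counts, against 0.0129 to 0.0176% in WT-HFD, against 0.0648 and 0.121% in RFP KO-HFD 2 and 3. Its adipocyte markers took 0.0332%, with Adipoq and Plin1 at 0 counts, against 1.34 to 2.79% in the other 5 libraries. Trim27 was at 22.6, 40.1 and 29.3 TMM-scaled CPM (hereafter CPM, each gene's share of the library's counts on a scale common to all libraries) in WT-HFD 1, 2 and 3 and at 19.3, 4.08 and 4.61 CPM in RFP KO-HFD 1, 2 and 3. The targeted gene in the library labelled RFP KO-HFD 1 was thus close to the lowest wild-type library (fitted log2 fold change over all libraries -1.72, SE 0.75, edgeR adjusted p = 0.76). WT-HFD 2 stood apart as well, with smooth muscle markers at 2.2% of its counts against 0.00269 to 0.114% elsewhere, and epididymal markers at 0.109% against at most 0.000661%. The name RFP KO-HFD 1 is used below as a label only, and whether that library was mislabelled or mixed with other RNA was not tested. Values without RFP KO-HFD 1 are therefore given beside those with all 6 libraries. Mitochondrial transcripts took 3.39 to 5.74% of WT-HFD counts, and their share in RFP KO-HFD 1, 2 and 3 was 22.3, 8.07 and 11.1%. Fewer cells of a type and less RNA per cell cannot be told apart in bulk tissue.

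The 40 genes together took 0.694, 0.6 and 0.65% of all counts in WT-HFD 1, 2 and 3 and 0.583, 0.457 and 0.291% in RFP KO-HFD 1, 2 and 3. Protein-coding genes took 94.8 to 95.6% of counts in WT-HFD, against 87.3, 85.9 and 70.8% in RFP KO-HFD 1, 2 and 3. As a share of counts of protein-coding nuclear genes, the 40 genes took 0.77, 0.656 and 0.716% in WT-HFD, against 0.874, 0.584 and 0.46% in RFP KO-HFD. On either denominator RFP KO-HFD 2 and 3 lay below every WT-HFD library. On the second, RFP KO-HFD 1 lay above them.

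Per kilobase of transcript, the most abundant of the 40 in WT-HFD was Calr, the calcium-binding lectin calreticulin, at 422 ± 47.9 CPM per kb (SD, n = 3). P4hb, the founding protein disulfide isomerase, followed at 237 ± 9.54 CPM per kb. Serpinh1, the collagen chaperone Hsp47, was at 233 ± 70.6, Ppib, the prolyl isomerase cyclophilin B, at 209 ± 24.9, and Pdia3, the isomerase that works with the lectins, at 164 ± 17.5 CPM per kb. The WT-HFD libraries of P4hb, Serpinh1 and Ppib overlapped each other, while those of Calr lay above and those of Pdia3 below P4hb and Ppib. At the foot of the order were the stress sensor Ern1 at 2.26 ± 0.618, the membrane thioredoxin Tmx3 at 2.4 ± 0.62 and the oxidase Ero1b at 3.17 ± 0.203 CPM per kb. Erp44 at 20.1 ± 0.462 and Dnajc10 at 20.3 ± 8.4 CPM per kb lay in the middle of the order at the same level.

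**Figure D1:**
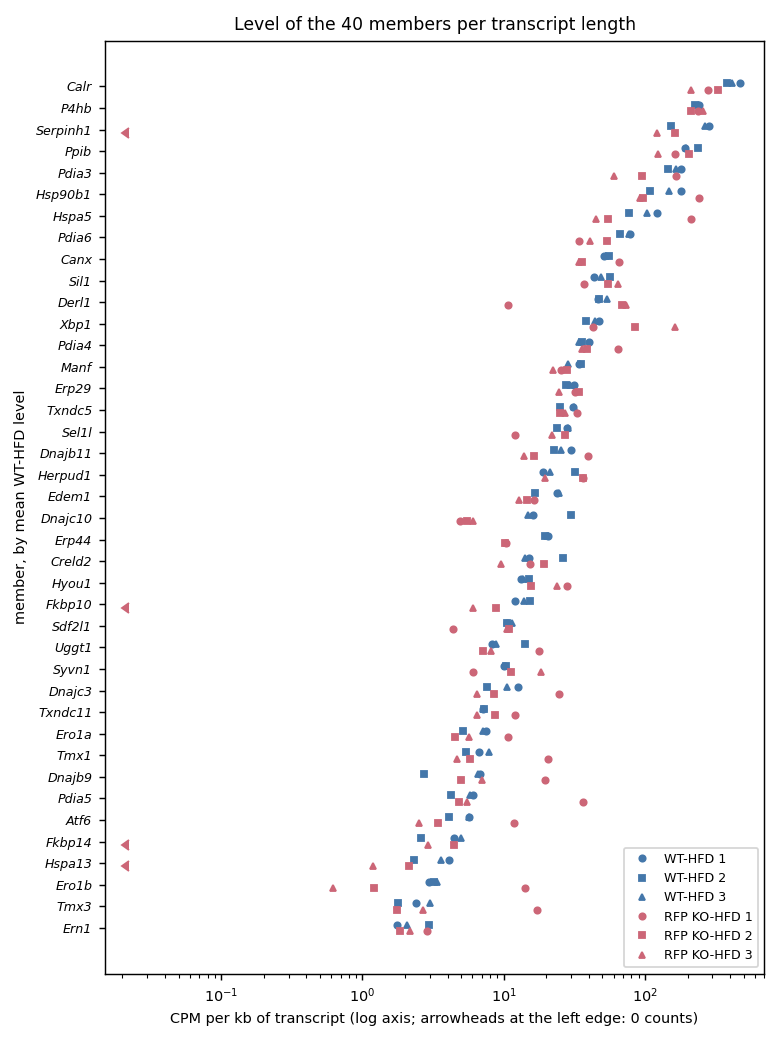
Level of each of the 40 genes in the 6 libraries, in CPM per kilobase of transcript on a log axis, ordered by the mean of the 3 WT-HFD libraries (blue) with the RFP KO-HFD libraries in red. Calr leads at 422 CPM per kb in WT-HFD, and the arrowheads mark the 4 genes without a count in RFP KO-HFD 1.

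All 40 genes passed the filter on low counts and were tested in a fit over 14706 genes. No gene of the table was called between genotypes in either direction at an adjusted p under 0.05 (edgeR quasi-likelihood test with Benjamini-Hochberg adjustment, background 0% lower and 0% higher, lowest adjusted p 0.267), and so none of the 40. At an unadjusted p under 0.05, 992 genes (6.75%) passed, and 0 of the 38 members other than Erp44 and Dnajc10. The adjusted p of these 38 lay between 0.744 and 0.998. With DESeq2, which called 488 genes, 0 of the 38 passed and their smallest adjusted p was 0.193. The list did not move one way as a whole. Its fitted values were lower in RFP KO-HFD for 20 genes and higher for 20 (50% lower, against 56% of all genes tested), and the median log2 fold change was 0.01, against -0.13 over all genes.

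By the order of the libraries, 8 of the 40 genes (20%) were below every WT-HFD library in every RFP KO-HFD library, against 16% of all genes tested. They were Erp44, Dnajc10, Hspa13, Calr, Pdia6, Fkbp10, Manf and Edem1. Leaving aside Erp44 and Dnajc10, which were chosen by this order, 6 of 38 (15.8%) remained, a share at the background. Hyou1 alone was above in every library (1 of 40, 2.5%, against 7.28%), and 31 overlapped.

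On the TMM scale, Erp44 had the smallest relative spread of the 40 genes in RFP KO-HFD. It was at 54.1, 51.6 and 52.8 CPM in WT-HFD 1, 2 and 3 and at 27.4, 26.7 and 27 CPM in RFP KO-HFD 1, 2 and 3. These rest on 992, 911 and 1015 counts and on 136, 366 and 246 counts. The 2 groups lay apart, and within each the values differed by a few percent (coefficient of variation 2.3% in WT-HFD, against 1.35% in RFP KO-HFD). The spread in RFP KO-HFD was smaller than the counting error of 136 counts, and it depended on the scaling. By library totals the values were 60.6, 59.9 and 59 CPM in WT-HFD and 27.9, 26.3 and 18.5 CPM in RFP KO-HFD. The TMM-scaled means were 52.8 ± 1.21 and 27 ± 0.364 CPM (SD, n = 3 each), a ratio of 0.511 and a fitted log2 fold change of -0.97 (SE 0.32). Without RFP KO-HFD 1 the fitted value was -0.99 (SE 0.17).

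Dnajc10 was at 64.6, 121 and 60.4 CPM in WT-HFD and at 19.7, 22.3 and 24.6 CPM in RFP KO-HFD. WT-HFD 2, the library with the smooth muscle and epididymal transcripts, was the highest of the 6, and the groups lay apart. The means were 82.1 ± 34 and 22.2 ± 2.42 CPM, a ratio of 0.271 (log2 fold change -1.89, SE 0.41), and the fitted value was -1.43 with RFP KO-HFD 1 and WT-HFD 2 both left out. With all 6 libraries its fitted value was the lowest among the 40, while without both libraries, and with library weights, that of Ero1b was lower. Erp44 lies at chr4:48190711-48279635 (minus strand) and Dnajc10 at chr2:80145790-80184399 (plus strand) on GRCm39, the build of the deposited coordinates, and the gene within the span of Erp44, Mir1958, had 0 counts.

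**Figure D2:**
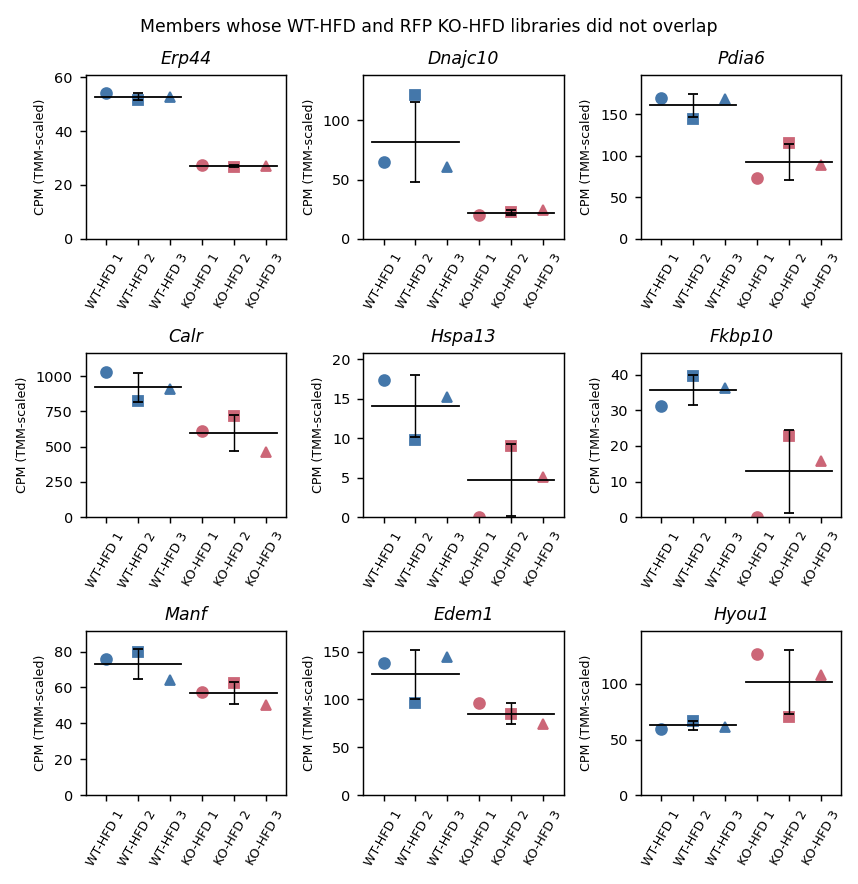
TMM-scaled CPM in each library (points) of the 9 genes whose genotypes did not overlap, with the mean (line) and SD (bar) of 3 libraries. Erp44 (52.8 against 27 CPM) and Dnajc10 (82.1 against 22.2 CPM) are the genes on which the list was chosen, and the groups of Edem1 and Manf were apart by a small margin.

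Among the other disulfide enzymes, Pdia6, an isomerase that also tempers stress sensors, was at 170, 145 and 168 CPM in WT-HFD and at 73.7, 116 and 88.5 CPM in RFP KO-HFD (log2 fold change -0.79, SE 0.34, edgeR adjusted p = 0.744). The libraries did not overlap, and without RFP KO-HFD 1 the value was -0.67 (adjusted p = 0.144). P4hb was nearly level, at 694, 648 and 696 CPM in WT-HFD, against 679, 609 and 739 CPM in RFP KO-HFD (log2 fold change -0.01, SE 0.36, edgeR adjusted p = 0.998, and -0.03 without RFP KO-HFD 1). With this SE the near-level means do not show that P4hb was unchanged.

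Pdia3 was at 500, 404 and 463 CPM in WT-HFD and at 461, 262 and 167 CPM in RFP KO-HFD (log2 fold change -0.62, SE 0.47, edgeR adjusted p = 0.892). RFP KO-HFD 1 was within the wild-type range and RFP KO-HFD 2 and 3 were below it, so that the value without RFP KO-HFD 1 was -1.10 (SE 0.27, adjusted p = 0.112). Ero1b, the second ERO1 oxidase, was at 12.5, 13.5 and 14.3 CPM in WT-HFD and at 59.6, 5.1 and 2.63 CPM in RFP KO-HFD. The library RFP KO-HFD 1 was highest of all and the other 2 lowest of all. The fitted value turned from 0.73 to -1.80 without it (SE 0.37, edgeR adjusted p = 0.0945). Its homolog Ero1a was at 33.2, 22.9 and 31.6 CPM in WT-HFD, against 47.3, 20.1 and 25 CPM in RFP KO-HFD, with overlap in both settings (log2 fold change 0.07, and -0.39 without RFP KO-HFD 1).

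Of the other enzymes of this class, Pdia5 and Tmx3 had the 2 highest fitted values of the 40, and both rested on 1 library. Pdia5 was at 10.9, 7.71 and 10.5 CPM in WT-HFD and at 65.6, 8.67 and 9.87 CPM in RFP KO-HFD (log2 fold change 1.53, SE 0.90, edgeR adjusted p = 0.829, and -0.08 without RFP KO-HFD 1). Tmx3 was at 11, 8.22 and 13.9 CPM in WT-HFD and at 78.9, 8.09 and 12.3 CPM in RFP KO-HFD (log2 fold change 1.58, SE 0.93, edgeR adjusted p = 0.829, and -0.14 without RFP KO-HFD 1). The library with these high values was the one with 2.76% hepatocyte markers, and the part of those transcripts in them was not tested. Tmx1, another membrane thioredoxin, had the same order with 58 CPM in RFP KO-HFD 1 and 13.1 to 21.8 CPM elsewhere. Pdia4, Erp29, Txndc5, Txndc11 and Creld2 overlapped between genotypes with all libraries and without RFP KO-HFD 1, with fitted values between -0.33 and 0.34 over all libraries. Txndc11 overlaps Snn on the other strand, so its counts are uncertain if strand was not used. In this class 7 of 15 fitted values were lower with all libraries and 13 of 15 without RFP KO-HFD 1. Of all genes tested, 56% and 53.5% were lower. Both counts of the class include Erp44 and Dnajc10, which were chosen as low.

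Among the chaperones, Hspa5 differed widely among the RFP KO-HFD libraries. BiP was at 449, 283 and 378 CPM in WT-HFD and at 778, 201 and 166 CPM in RFP KO-HFD 1, 2 and 3. The first of these lay above, and the other 2 below, every wild-type library, and the fitted values were 0.04 (SE 0.67, edgeR adjusted p = 0.997) and, without RFP KO-HFD 1, -1.03 (SE 0.27, adjusted p = 0.119). Hsp90b1 went the same way, at 507, 309 and 416 CPM in WT-HFD, against 680, 275 and 261 CPM in RFP KO-HFD (log2 fold change -0.02, and -0.63 without RFP KO-HFD 1, adjusted p = 0.219). So did the co-chaperone Dnajb11, at 75.3, 57 and 63.6 CPM against 98.5, 41.1 and 34.9 CPM (-0.17, and -0.80 without RFP KO-HFD 1, edgeR adjusted p = 0.12).

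Dnajc3, a co-chaperone known as an inhibitor of PERK, and Dnajb9, a co-chaperone that serves degradation and restrains IRE1, were also highest in RFP KO-HFD 1. Dnajc3 was at 64.6, 38.8 and 54.1 CPM in WT-HFD, against 127, 44.1 and 33.5 CPM in RFP KO-HFD. Dnajb9, with the highest fitted value of the chaperone genes, was at 16.6, 6.75 and 16.2 CPM in WT-HFD, against 48.5, 12.3 and 17.3 CPM in RFP KO-HFD (log2 fold change 0.98, SE 0.71, edgeR adjusted p = 0.881, and 0.15 without RFP KO-HFD 1). RFP KO-HFD 1 was the highest of the 6 libraries in 18 of the 40 genes (45%), against 25.4% of all genes tested, and the lowest in 11 (27.5%), against 59.8%.

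Hyou1, an Hsp110-like nucleotide exchange factor of BiP, was the one gene above in every library labelled RFP KO-HFD. It was at 59.3, 67.1 and 61.6 CPM in WT-HFD and at 127, 70.4 and 108 CPM in RFP KO-HFD (62.7 ± 4.02 and 102 ± 28.7, log2 fold change 0.70, SE 0.35, edgeR adjusted p = 0.781). The lowest RFP KO-HFD value was 1.05 times the highest WT-HFD value, and the fitted value without RFP KO-HFD 1 was 0.49 (adjusted p = 0.251). By library totals the groups of Hyou1 overlapped. The other exchange factor of BiP, Sil1, overlapped, with fitted values of 0.08 and, without RFP KO-HFD 1, 0.26 (adjusted p = 0.986 and 0.448).

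Hspa13, a microsomal Hsp70, was at 17.4, 9.75 and 15.2 CPM in WT-HFD and at 0, 9.03 and 5.05 CPM in RFP KO-HFD (log2 fold change -1.57, SE 1.38, edgeR adjusted p = 0.911, and -1.02 without RFP KO-HFD 1). A count of 0 in RFP KO-HFD 1 allows up to 0.616 CPM (3 counts of the library total), which was under the lowest value elsewhere. Manf, a secreted ER stress protein, was at 76.1, 79.8 and 63.9 CPM in WT-HFD and at 57.2, 62.7 and 50.3 CPM in RFP KO-HFD (log2 fold change -0.37, SE 0.31, edgeR adjusted p = 0.909, and -0.39 without RFP KO-HFD 1). The highest RFP KO-HFD value was 0.981 of the lowest wild-type value. Sdf2l1, a partner of the BiP cycle, fell just outside this order, at 11.6, 11.8 and 12.8 CPM against 4.83, 12.1 and 11.7 CPM, a ratio of 1.04.

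The lectin chaperones and their folding sensor were below every WT-HFD library in RFP KO-HFD 2 and 3 in all 3 cases, against 24.7% of all genes. Calr was at 1033, 826 and 908 CPM in WT-HFD and at 613, 715 and 463 CPM in RFP KO-HFD, without overlap (log2 fold change -0.63, SE 0.39, edgeR adjusted p = 0.845, and -0.66 without RFP KO-HFD 1, adjusted p = 0.214). Its membrane-bound partner Canx was at 220, 240 and 225 CPM in WT-HFD, against 280, 153 and 145 CPM in RFP KO-HFD (log2 fold change -0.25, and -0.63 without RFP KO-HFD 1, edgeR adjusted p = 0.124). Uggt1, which re-tags misfolded glycoproteins for a further round, was at 74.2, 128 and 79.3 CPM in WT-HFD, against 160, 64.2 and 73.5 CPM in RFP KO-HFD (log2 fold change 0.08, and -0.46 without RFP KO-HFD 1). For Uggt1 the higher of the RFP KO-HFD 2 and 3 values was 0.991 of the lowest wild-type value.

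The collagen chaperone and the prolyl isomerases had lower fitted values in 4 of 4 cases, against 56% of all genes tested. The same 4 were lower without RFP KO-HFD 1, against 53.5%. Here the library RFP KO-HFD 1 was at the other extreme, with 0 counts for Serpinh1, Fkbp10 and Fkbp14. Serpinh1 was at 643, 347 and 603 CPM in WT-HFD and at 0, 368 and 277 CPM in RFP KO-HFD (log2 fold change -1.30, SE 1.73, edgeR adjusted p = 0.948, and -0.74 without RFP KO-HFD 1, adjusted p = 0.248). Fkbp10, which acts on procollagen, was at 31.2, 39.8 and 36.2 CPM in WT-HFD and at 0, 22.8 and 15.7 CPM in RFP KO-HFD (-1.47, SE 1.37, edgeR adjusted p = 0.919, and -0.91 without RFP KO-HFD 1, adjusted p = 0.122). Both this gene and Fkbp14 overlap a gene on the other strand, Nt5c3b and Plekha8. Fkbp14, its relative, also had no count in RFP KO-HFD 1, while RFP KO-HFD 2 and 3, at 12 and 7.79 CPM, overlapped WT-HFD. Its log2 fold change was -0.70, and -0.14 without RFP KO-HFD 1. In total 4 of the 40 genes (10%) had 0 counts in this library, against 34.1% of all genes tested.

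The fibroblast markers as a sum were also lower in RFP KO-HFD. They took 0.506, 0.21 and 0.45% of counts in WT-HFD 1, 2 and 3 and 0.021, 0.181 and 0.0464% in RFP KO-HFD 1, 2 and 3, with 3 of 10 at 0 counts in RFP KO-HFD 1. One of them, Dpp4, was highest in that library, at 103 CPM of the library total against 16 to 34.2 CPM in WT-HFD. Within WT-HFD, the sum was lowest in WT-HFD 2, where Serpinh1 and Fkbp14 were lowest too but Fkbp10 was highest, at 39.8 CPM. The part of fibroblasts in the values of Serpinh1, Fkbp10 and Fkbp14 was not tested. Ppib, at 172, 212 and 175 CPM in WT-HFD, against 146, 183 and 111 CPM in RFP KO-HFD, overlapped (log2 fold change -0.34, SE 0.35, edgeR adjusted p = 0.927, and -0.36 without RFP KO-HFD 1). Ppib and Serpinh1 stood just outside the order used above, with a ratio of the highest RFP KO-HFD to the lowest WT-HFD value of 1.06 each.

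**Figure D3:**
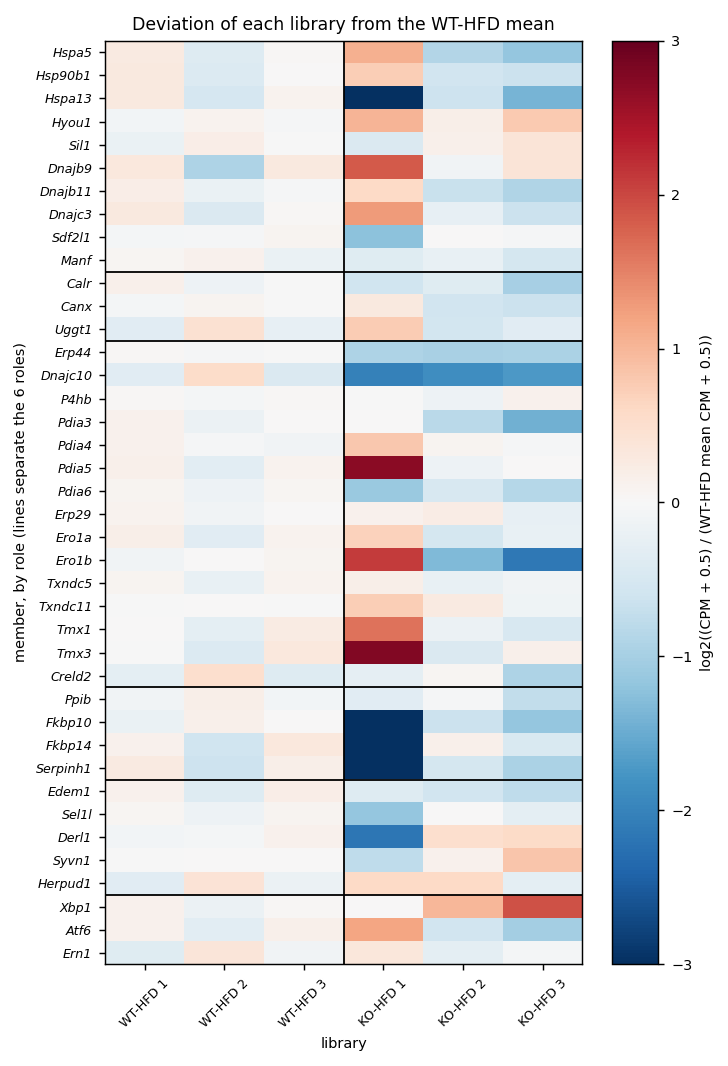
Log2 of the CPM of each library over the WT-HFD mean, with 0.5 CPM added to both, for the 40 genes ordered by role (colour scale from -3 to 3, values beyond it drawn at its ends). KO-HFD stands for RFP KO-HFD. Erp44 and Dnajc10 are blue in all 3 RFP KO-HFD columns, whereas many chaperones and disulfide enzymes are red in RFP KO-HFD 1 and blue in RFP KO-HFD 2 and 3.

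Of the stress factor gene Xbp1 and the 5 degradation factors, Xbp1, Derl1 and Syvn1 were above every WT-HFD library in RFP KO-HFD 2 and 3, Edem1 was below and Sel1l and Herpud1 overlapped. Xbp1 was at 100, 80.9 and 93.9 CPM in WT-HFD and at 91.8, 182 and 345 CPM in RFP KO-HFD 1, 2 and 3. Of these, RFP KO-HFD 1 lay within the WT-HFD range while RFP KO-HFD 2 and 3 lay above it, which gave fitted values of 1.17 (SE 0.53, edgeR adjusted p = 0.76) and 1.51 without RFP KO-HFD 1 (SE 0.30, adjusted p = 0.093). By library totals RFP KO-HFD 2 and 3 were above every WT-HFD library too. Spliced and unspliced Xbp1 transcripts were not separated in the gene counts. XBP1 is also a defining factor of plasma cells. The other 8 genes of the B cell and plasma cell marker list summed to 92.5, 114 and 91.3 CPM of the library total in WT-HFD and to 96.5, 48.1 and 19.7 CPM in RFP KO-HFD. Sdc1, which other cells also express, made up 60.4 to 69.1 CPM of this sum in WT-HFD and 66.3, 27.1 and 12.5 CPM in RFP KO-HFD. Derl3 went from 0.988 to 1.77 CPM in WT-HFD to 0, 3.95 and 3.61 CPM in RFP KO-HFD, and Mzb1 was at 0.174 to 1.84 CPM and 0, 1.36 and 0.676 CPM. The part of plasma cells in the Xbp1 values was not tested.

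Derl1, a channel component of ER-associated degradation, was at 147, 149 and 170 CPM in WT-HFD and at 34, 220 and 232 CPM in RFP KO-HFD (log2 fold change 0.06, SE 0.69, and 0.53 without RFP KO-HFD 1, edgeR adjusted p = 0.156). Syvn1, the ubiquitin ligase Hrd1 of the same path, was at 35.2, 36 and 35.8 CPM in WT-HFD and at 20.9, 38.8 and 63.7 CPM in RFP KO-HFD (log2 fold change 0.21, and 0.51 without RFP KO-HFD 1, edgeR adjusted p = 0.267). Both were lowest in RFP KO-HFD 1 and highest in RFP KO-HFD 3. Syvn1 overlaps Mrpl49 on the other strand, and reads of the 2 genes could be confused if strand was not used in counting. Scaled to library totals alone, the values of Derl1 and Syvn1 over all 6 libraries turned to -0.36 and -0.23, and RFP KO-HFD 2 and 3 no longer lay above every WT-HFD library in either gene. Derl1 was then at 165 to 189 CPM of the library total in WT-HFD and at 217 and 159 in RFP KO-HFD 2 and 3, and Syvn1 at 39.4 to 41.7 and at 38.2 and 43.7.

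Sel1l, the adaptor that holds Hrd1 in place, did not follow Syvn1. It was at 177, 151 and 179 CPM in WT-HFD, against 75.7, 171 and 138 CPM in RFP KO-HFD (log2 fold change -0.40, SE 0.40, edgeR adjusted p = 0.926, and -0.15 without RFP KO-HFD 1). Herpud1, a stress-induced scaffold of the same complex, overlapped too (0.36, adjusted p = 0.942, and 0.20 without RFP KO-HFD 1). Edem1, which extracts misfolded glycoproteins from the lectin cycle, was at 138, 96.4 and 144 CPM in WT-HFD and at 96.1, 84.6 and 74.6 CPM in RFP KO-HFD. Its genotypes were apart by the smallest margin of all, with the highest RFP KO-HFD value 0.997 of the lowest wild-type value (log2 fold change -0.57, SE 0.33, edgeR adjusted p = 0.829, and -0.68 without RFP KO-HFD 1, adjusted p = 0.172).

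Of the sensors, Atf6 was at 41, 29.6 and 41.2 CPM in WT-HFD and at 85.6, 24.8 and 18.2 CPM in RFP KO-HFD (log2 fold change 0.20, SE 0.64, and -0.81 without RFP KO-HFD 1, edgeR adjusted p = 0.147). Ern1, whose protein splices Xbp1 mRNA, overlapped in both settings, at 12.2 to 20.5 CPM in WT-HFD, against 12.8 to 19.9 CPM in RFP KO-HFD (0.02, adjusted p = 0.998, and -0.18 without RFP KO-HFD 1).

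**Figure D4:**
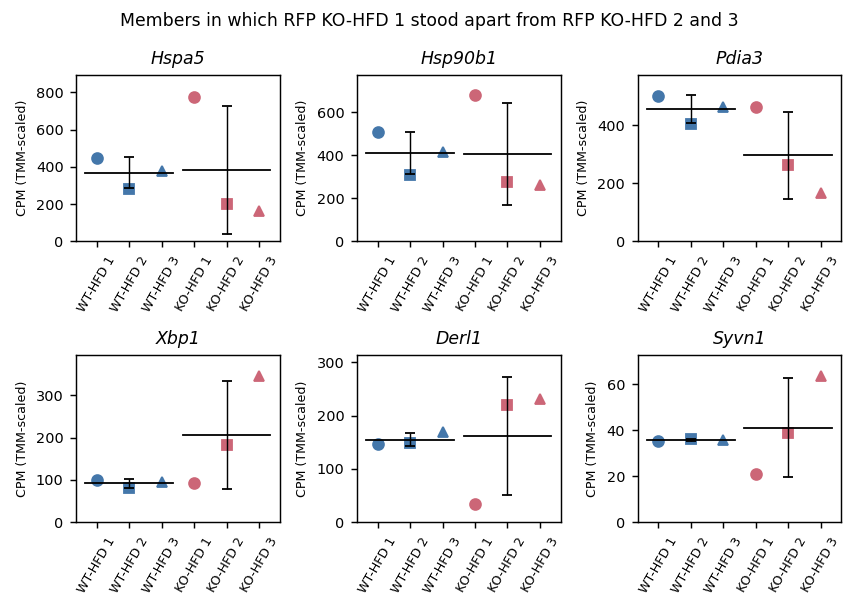
TMM-scaled CPM in each library (points) of 6 genes in which RFP KO-HFD 1 lay on the other side of, or within, the WT-HFD range from RFP KO-HFD 2 and 3, with the mean (line) and SD (bar) of 3 libraries. Hspa5, Hsp90b1 and Pdia3 were lower, and Xbp1, Derl1 and Syvn1 higher, in RFP KO-HFD 2 and 3 than in every WT-HFD library on this scale, an order that Derl1 and Syvn1 lost by library totals.

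Without RFP KO-HFD 1 the list as a whole looked different. Fitted values were then lower for 31 of 40 genes, Erp44 and Dnajc10 among them (77.5%, against 53.5% of the 15606 genes tested). The median log2 fold change was -0.36, against -0.07 over all genes. In RFP KO-HFD 2 and 3, 16 genes (40%) were below every WT-HFD library, against 24.7% of all genes. Leaving out Erp44 and Dnajc10, these were 14 of 38 (36.8%). Only 4 genes (10%), Hyou1, Xbp1, Derl1 and Syvn1, were above, against 20.6%. At an unadjusted p under 0.05, 12 of the 38 passed (31.6%), 10 of them lower, against 24.7% of all genes. No member passed at an adjusted p under 0.05, with the adjusted p of the 38 between 0.093 and 0.973, and 2 genes of the whole table did. RFP KO-HFD has 2 libraries in this fit. Against WT-HFD both had a higher mitochondrial share (8.07 and 11.1%, against 3.39 to 5.74%) and a lower protein-coding share, lowest in RFP KO-HFD 3 (70.8%), which also had counts in 16396 genes against 20046 to 20278 in WT-HFD. Mesothelial markers were at 0.00888 and 0.000969% against 0.01 to 0.0608%, with 2 and 3 of 8 at 0 counts, and fibroblast markers also below every WT-HFD library. Of the mesothelial markers, Krt19 was at 28.9, 473 and 40.4 CPM of the library total in WT-HFD. It was at 81.9 and 4.13 CPM in RFP KO-HFD 2 and 3. The other mesothelial markers were below every WT-HFD library in both. The part of these markers and shares in the values was not tested. The count below also depended on the scaling. By library totals, a setting added after the data were seen, 28 members (70%) were below in RFP KO-HFD 2 and 3, against 40.7% of all genes. Leaving out Erp44 and Dnajc10, these were 26 of 38. Xbp1 alone (2.5%) was above, against 9.03%.

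A fit that kept all 6 libraries but weighted each by its quality (limma-voom) also gave lower fitted values for 31 of the 40, Erp44 and Dnajc10 among them. It called 1039 genes, 2.97% of those tested as lower and 4.09% as higher. Of the 38 members other than Erp44 and Dnajc10, 3 were called lower and 1 higher. These were Pdia3 (log2 fold change -1.18, limma adjusted p = 0.0239), Hspa5 (-1.09, limma adjusted p = 0.0394) and Edem1 (-0.81, limma adjusted p = 0.0496), and, higher, Xbp1 (1.38, limma adjusted p = 0.0211). These are 7.89% of the 38 for the lower calls and 2.63% for the higher call.

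The promoter element did not divide the genes when all libraries were used. The 9 carriers had a median log2 fold change of -0.02 and the 22 other genes with a promoter entry one of -0.03. Without RFP KO-HFD 1 the carriers were lower in 8 of 9 cases with a median of -0.63, and the others in 17 of 22 with a median of -0.18. Of all genes, 53.5% were lower in this fit, with a median of -0.07. The others include Erp44 and Dnajc10, chosen as low. They also include Dnajb11, Herpud1, Txndc5 and Txndc11, which carry another of the searched motifs. Relative to the wild-type mean, the median of the carriers was 0.29 in RFP KO-HFD 1, -0.47 in RFP KO-HFD 2 and -0.85 in RFP KO-HFD 3 on the log2 scale. The exception among the carriers was Syvn1. The difference between carriers and others was not tested, because the members were chosen with these libraries in view.

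**Figure D5:**
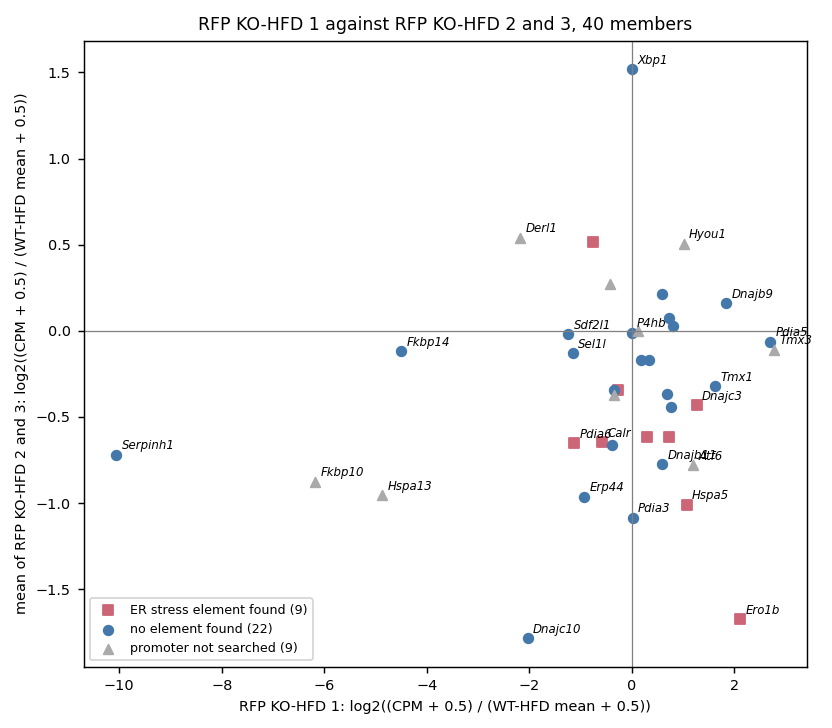
Log2 ratio to the WT-HFD mean (0.5 CPM added to both) of RFP KO-HFD 1 (horizontal) and of the mean of RFP KO-HFD 2 and 3 (vertical) for the 40 genes, with the 9 carriers of the ER stress element as squares. Of the 22 genes whose RFP KO-HFD 1 value exceeded the WT-HFD mean, 16 were below it in the mean of RFP KO-HFD 2 and 3, and the 4 genes farthest to the left had no count in RFP KO-HFD 1.

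Further genes of the secretory path were taken as 10 lists of related machinery, none with a gene called in edgeR over all libraries or without RFP KO-HFD 1. The translocon, which threads new chains into the ER, had 22 of 26 fitted values lower (median log2 fold change -0.38, and -0.36 without RFP KO-HFD 1), against 56% of all genes. Ssr1, a translocon-associated protein, was at 140, 110 and 127 CPM in WT-HFD, against 64, 92.4 and 82.3 CPM in RFP KO-HFD (-0.66, edgeR adjusted p = 0.776, and -0.54 without RFP KO-HFD 1), without overlap. Collagen modification genes were lower in 16 of 17 cases (median -0.63), but in 12 of 17 without RFP KO-HFD 1 (median -0.36). Colgalt1, a collagen galactosyltransferase of this list, was at 165, 126 and 177 CPM against 110, 104 and 94.3 CPM (-0.61, edgeR adjusted p = 0.805, and -0.68 without RFP KO-HFD 1). The remaining thioredoxin-fold proteins of the ER were lower in 13 of 17 cases (median -0.34), and in 13 of 17 without RFP KO-HFD 1 (median -0.23).

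The oligosaccharyltransferase, which attaches sugar chains, was lower in 9 of 12 cases (median -0.51, but 6 of 12 and -0.07 without RFP KO-HFD 1). Its subunit gene Tusc3 was at 22.3, 15.3 and 23.6 CPM in WT-HFD, against 4.23, 5.68 and 2.74 CPM in RFP KO-HFD (log2 fold change -2.27, edgeR adjusted p = 0.599, and -2.28 without RFP KO-HFD 1, adjusted p = 0.0849). Tusc3 carries an oxidoreductase fold, and its groups did not overlap. Magt1, of the same list, went the other way, without overlap on the TMM scale. It was at 63.4, 56.9 and 62.1 CPM in WT-HFD, against 667, 87.7 and 78.8 CPM in RFP KO-HFD. Its log2 fold change was 2.19 (edgeR adjusted p = 0.737), and 0.44 without RFP KO-HFD 1. By library totals the groups of Magt1 overlapped. Of the 12 genes, 4 were below every WT-HFD library in every RFP KO-HFD library and 1 above, against 16% and 7.28% of all genes tested. Other genes of the lectin cycle were lower in 7 of 11 cases (median -0.35), and without RFP KO-HFD 1 in 6 of 11 (-0.09). Those of ER-associated degradation were lower in 14 of 21 (median -0.14), and without RFP KO-HFD 1 in 13 of 21 (-0.28). In this list 5 of 21 genes were below every WT-HFD library in every RFP KO-HFD library and 2 above, against 16% and 7.28% of all genes tested. Selenos, a selenoprotein of the degradation complex, was at 24.8, 20.4 and 23.4 CPM in WT-HFD, against 39.5, 39 and 35.5 CPM in RFP KO-HFD. It was above in every library on the TMM scale (0.73, edgeR adjusted p = 0.775, and 0.69 without RFP KO-HFD 1). By library totals the groups of Selenos overlapped. Erlec1 was below in every library, at 64.9, 51.2 and 59.8 CPM against 40.9, 37.4 and 15.6 CPM (-0.91, edgeR adjusted p = 0.781, and -1.16 without RFP KO-HFD 1).

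The PERK and ATF4 branch was lower in 9 of 15 cases (median -0.22), and without RFP KO-HFD 1 in 10 of 16 (-0.16). The remaining sensors and their proteases were lower in 6 of 10 (median -0.14), but without RFP KO-HFD 1 in 4 of 10, with a median of 0.05. Creb3l3, an ER-bound factor known from liver, was at 0.818 to 1.14 CPM in WT-HFD and at 55.6, 2.11 and 2.85 CPM in RFP KO-HFD, with the hepatocyte markers highest in the same library. Their part in it was not tested. Secretory cargo and assembly genes of adipocytes were lower in 5 of 13 cases (median 0.30, and 0.63 without RFP KO-HFD 1). Adipoq, whose protein is retained by Erp44 and which is named here after its values were seen, was at 1471, 1225 and 1472 CPM in WT-HFD and at 0, 2017 and 2321 CPM in RFP KO-HFD (log2 fold change 0.06, and 0.63 without RFP KO-HFD 1, edgeR adjusted p = 0.179). On this scale RFP KO-HFD 2 and 3 were above every WT-HFD library, but by library totals RFP KO-HFD 3, at 1590 CPM, was below WT-HFD 1 and 3, at 1650 and 1644 CPM.

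Of 25 chaperones outside the ER, cytosolic and mitochondrial, 11 were lower and 14 higher (median log2 fold change 0.03, and -0.12 without RFP KO-HFD 1). The cytosolic Hsp40 gene Dnajb1 was at 28.3, 31 and 27.3 CPM in WT-HFD, against 237, 54.1 and 53.2 CPM in RFP KO-HFD (1.99, edgeR adjusted p = 0.655, and 0.88 without RFP KO-HFD 1). Hsp90aa1, the inducible cytosolic Hsp90, was at 384, 348 and 365 CPM against 1151, 695 and 518 CPM (1.11, edgeR adjusted p = 0.716, and 0.72 without RFP KO-HFD 1). On the TMM scale both were above in every library labelled RFP KO-HFD, while the ER counterpart Hsp90b1 was above in RFP KO-HFD 1 alone. By library totals the groups of Hsp90aa1 overlapped. The TMM factor was 0.685 in RFP KO-HFD 3, against 1.12 to 1.16 in WT-HFD. Of the 25 genes, 3 were above in every library and 2 below, against 7.28% and 16% of all genes tested. Hspa1a and Hspa1b overlapped (4.31 and 3.84, and 1.29 and 0.72 without RFP KO-HFD 1).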

How the data were processed

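Trizol-extracted eWAT RNA for 3 WT-HFD and 3 RFP KO-HFD libraries was selected for poly(A) and prepared with the CORALL kit, and the labels also name rRNA removal. For processing, the submitters' notes list FastQC, Trimmomatic and STAR with mm10, the study's methods name Fastp, STAR and Salmon, and the deposited coordinates are on GRCm39. No version is given in any of these. The authors deposited whole-number counts per gene and library, which were used as they stand. Columns of normalized values, folds and p-values made by the authors were not used.

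Groups came from the labels. Genes were kept by filterByExpr (minimum count 10, minimum total 15), leaving 14706 of 40213, and fitted in edgeR 4.0.16 (TMM, glmQLFit robust, glmQLFTest, genotype only, R 4.3.3), with Benjamini-Hochberg adjustment over all genes tested and a threshold of 0.05. CPM are TMM-scaled, and fold changes are RFP KO-HFD over WT-HFD. The SE of edgeR values is the absolute log2 fold change over the square root of the test's F statistic. It thus follows from the test and is not the replicate spread of the gene alone. Levels per kb use the longest APPRIS-principal transcript in GENCODE M21. limma 3.58.1 (voom, plain or weighted by library), DESeq2 1.42.0, other scalings and filters, a replicate block and leaving out libraries were alternatives. All tests were tried on simulated counts. The 40 members, the 10 pathway lists and the 9 marker lists were chosen with earlier results of these data known. Full values are given for Erp44, Dnajc10, members without overlap or just short of it, the 4 largest fitted changes in each direction and the 5 highest levels, and for up to 4 genes of smallest p in each other list. Members named beyond this rule were chosen after their values were seen. Totals were 4870239 to 17215047 counts, so a count of 0 allows 0.174 to 0.616 CPM (counting error only). The labels do not say that each library is a separate mouse, so p-values measure only the spread between these libraries, which may be technical. Protein sequences were not analysed here.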

Additional observations from a re-analysis of the deposited data

How the results depend on the processing

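The 40 genes gave 676 fitted values under 17 alternatives, of which 609 moved by less than 1 SD between replicates and 67 by more. The sign was lower under every setting for 16 genes, Erp44, Dnajc10, Calr and Pdia6 among them, and higher for 4 (Txndc11, Hyou1, Herpud1 and Xbp1), and it depended on the setting for 20. Erp44 ranged from -1.30 to -0.88 and Dnajc10 from -2.25 to -1.43. DESeq2 called 488 genes and 2 members, limma-voom with quality weights 1039 and 6, and the fit without RFP KO-HFD 1 and WT-HFD 2 called 507 and 2. These member counts include Erp44 and Dnajc10, which were chosen on these same values. Their part in the counts is therefore no test of them and is not evidence of a difference. Of the other 38 members 0, 4 and 0 were called, and these too were listed with earlier results of the data known. With 1 library left out, 0 to 2 genes and 0 members were called. Lower fitted values numbered 31 with quality weights, 32 without both libraries and 18 to 31 with 1 library left out. Members below every WT-HFD library numbered 13 by library totals, 5 with at least 10 counts in every library (36 members tested), 23 without both libraries, 28 by library totals without RFP KO-HFD 1 (chosen after seeing the data) and 8 to 16 with 1 left out. Erp44 and Dnajc10 are in each of these counts. Members above numbered 2 with upper-quartile factors, 0 by library totals, 5 without both libraries and 1 to 4 with 1 left out. The highest value of each of these ranges came without RFP KO-HFD 1. As for the members' median log2 fold change, it was -0.25 with limma-voom, -0.32 with quality weights, -0.33 by library totals and -0.31 without both libraries, and -0.36 to 0.07 with 1 library left out. Library totals moved the median of all genes from -0.13 to -0.50, so relative to it the members were at 0.17, against 0.14 with TMM. Of the 40 genes 12 changed sign under 1 or more of the other scalings, Hspa5, Hsp90b1, Derl1 and Syvn1 among them. The cause of these shifts was not tested.

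The deviations of libraries of the same replicate number correlated at 0.0365, 0.0396 and 0.0762. These low values do not settle whether such libraries were paired. With the replicate block 0 genes and 0 members were called, 26 members had lower values and the median was -0.22. With promoters cut to the 250 upstream bases the element was in the same share of members, 29%. A group of 3 libraries, one of them shallow and with 0 counts for 34.1% of genes, limits what could be seen. The SE of the members reached 1.73 with all libraries.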
